A study of Mus musculus with 23 samples.

Results

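S100a8, S100a9, Retnlg, Csf3r, Clec4d, Fpr1, Fpr2, Mmp8, Mmp9 and Trem1 are genes widely used as markers of mature neutrophils, and their mRNA was followed in mouse lung after inhaled endotoxin. They were picked by symbol, with earlier results of these data known and no threshold on their values, and are 10 of the 41388 genes in the count table and 10 of the 17148 genes that passed the filter on low counts and were tested. The lungs came from male Balb/c mice, 1 RNA-seq library per mouse, and the study asked how preparations of human alpha1-antitrypsin (AAT) bear on the lung response to inhaled lipopolysaccharide (LPS). Mice of the 4 LPS groups breathed a 0.21 mg/ml LPS aerosol over 3 days, 10 min daily, and 1 h after each challenge were injected intraperitoneally with AAT at 4 mg/kg or with saline. LPS+nAAT mice (n = 5) received native AAT, LPS+oxAAT mice (n = 5) oxidized AAT, LPS+recAAT mice (n = 5) recombinant AAT, and LPS mice (n = 5) no AAT. The air group (n = 3) breathed clean air instead of LPS and also received no AAT. Tissue was collected 6 h after the final injection, so each value belongs to 1 time point. The labels speak of 5 mice per group, and the remaining air mice and a group given peptide C-36 were not analysed here.

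Neutrophils are short-lived phagocytes that leave the bone marrow as mature cells and gather in the lung within hours of inhaled LPS, a bacterial cell-wall component sensed by Tlr4. They carry S100a8 and S100a9 protein in their cytosol, find bacteria and injured tissue through formyl peptide receptors, and release proteases such as neutrophil elastase, which AAT inhibits. Mature neutrophils have largely stopped making the mRNA of primary-granule proteins such as Mpo and Elane, so the genes described here and those granule genes mark different stages. None of these markers is exclusive: Clec4d, Fpr1, Fpr2, Trem1 and Mmp9 are also made by monocytes and macrophages, which LPS activates. The lung homogenate holds all of these cells, and fewer neutrophils and less RNA per neutrophil cannot be told apart in such bulk samples.

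The genes lie on 7 mouse chromosomes (GRCm38, GENCODE release M21, all protein-coding). S100a8 (ENSMUSG00000056054, chr3:90668978-90670035, plus strand) and S100a9 (ENSMUSG00000056071, chr3:90692632-90695721, minus strand) are neighbours. Retnlg (ENSMUSG00000022651) is at chr16:48872621-48874496 on the plus strand, and Csf3r (ENSMUSG00000028859) at chr4:126024550-126044440 on the plus strand. Clec4d (ENSMUSG00000030144) is at chr6:123262111-123275265 on the plus strand. Chromosome 17 carries Fpr1 (ENSMUSG00000045551, chr17:17876471-17883940, minus strand), Fpr2 (ENSMUSG00000052270, chr17:17887824-17893952, plus strand) and Trem1 (ENSMUSG00000042265, chr17:48232768-48246924, plus strand). Mmp8 (ENSMUSG00000005800) is at chr9:7558456-7568485 and Mmp9 (ENSMUSG00000017737) at chr2:164940780-164955850, both on the plus strand. The exons of Fpr2 overlap those of its paralog Fpr3 on the same strand, so reads in the overlap could not be assigned; Fpr3 itself had 0 counts in 22 of 23 libraries. Exons of the other 9 genes overlap no other annotated gene.

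Promoters from the RefSeq table (GRCm38.p6; 250 bases before to 50 after the transcription start) were available for 9 of the 10 genes, all but Mmp9. They were searched on both strands for TTGCNNAA (a C/EBP core), AGGAAGT (an ETS core of the PU.1 class), TGANTCA (AP-1) and GGGANTTCC (NF-kB), motifs of factors known from neutrophil development and the LPS response. Shown first are S100a8, S100a9 and Retnlg, whose levels were correlated from mouse to mouse, and then Clec4d and Fpr2, which rose in every LPS group. Capitals mark a motif match.
S100a8: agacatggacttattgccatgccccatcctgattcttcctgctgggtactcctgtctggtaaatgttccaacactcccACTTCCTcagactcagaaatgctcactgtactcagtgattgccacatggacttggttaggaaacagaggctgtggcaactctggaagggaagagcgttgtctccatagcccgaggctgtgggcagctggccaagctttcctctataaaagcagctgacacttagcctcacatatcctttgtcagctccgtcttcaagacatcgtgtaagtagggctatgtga
S100a9: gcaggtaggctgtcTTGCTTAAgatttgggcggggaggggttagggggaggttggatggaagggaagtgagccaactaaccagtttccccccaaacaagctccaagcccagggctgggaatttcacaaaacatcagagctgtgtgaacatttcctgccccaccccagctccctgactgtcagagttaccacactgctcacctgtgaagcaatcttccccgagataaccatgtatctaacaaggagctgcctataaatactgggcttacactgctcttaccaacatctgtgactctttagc
Retnlg: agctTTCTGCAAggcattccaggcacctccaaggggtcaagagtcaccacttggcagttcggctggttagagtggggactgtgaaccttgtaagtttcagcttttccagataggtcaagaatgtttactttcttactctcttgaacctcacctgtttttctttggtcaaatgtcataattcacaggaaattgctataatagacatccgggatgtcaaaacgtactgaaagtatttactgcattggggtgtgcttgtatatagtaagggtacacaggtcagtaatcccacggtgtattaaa
Clec4d: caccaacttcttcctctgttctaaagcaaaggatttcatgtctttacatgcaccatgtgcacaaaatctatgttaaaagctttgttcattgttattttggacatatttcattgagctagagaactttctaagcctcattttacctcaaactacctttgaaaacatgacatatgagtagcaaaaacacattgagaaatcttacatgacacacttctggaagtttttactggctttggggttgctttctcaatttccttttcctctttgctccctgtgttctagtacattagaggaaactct
Fpr2: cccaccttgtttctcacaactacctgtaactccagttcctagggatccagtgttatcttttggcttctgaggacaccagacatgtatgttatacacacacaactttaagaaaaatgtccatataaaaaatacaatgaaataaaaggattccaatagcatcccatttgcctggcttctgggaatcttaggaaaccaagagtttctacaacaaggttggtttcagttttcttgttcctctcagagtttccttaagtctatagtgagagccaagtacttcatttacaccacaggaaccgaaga
These windows are chr3:90668821-90669120 (S100a8, plus strand), chr3:90695672-90695971 (S100a9, minus strand), chr16:48872358-48872657 (Retnlg, plus strand), chr6:123261857-123262156 (Clec4d, plus strand) and chr17:17887574-17887873 (Fpr2, plus strand). The S100a8 window held an ETS match whose first base lies at -172 from the start, and the S100a9 and Retnlg windows a C/EBP match at -236 and -246. Beyond those printed, Mmp8 held a C/EBP match at -19 and an ETS match at -221, and Trem1 an ETS match at -109. Clec4d, Fpr2, Fpr1 and Csf3r held none of the 4 motifs, and none of the 9 windows searched held the AP-1 or NF-kB letters. Mmp9 was not searched. Over 32544 promoters of the same length, 10.8% held the C/EBP letters, 9.27% the ETS, 7.79% the AP-1 and 1.69% the NF-kB letters, and no match says only that these letters are not in that window. The motifs do not overlap in letters, and a match is a description, not a binding site.

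Each library held 14.8 to 47.9 M counts on genes (median 28.7 M), and the 10 genes had 71 to 12491 counts in single libraries. A pair of library sets, not described in the labels, was seen in the mitochondrial genes. Of the 23 libraries, 15 had an mt-Nd6 count of 0.338% to 1.14% of that of mt-Nd5 and 8 had 3.39% to 4.5%. The second set holds LPS+oxAAT mice 5103, 5104 and 5105 and all LPS+recAAT mice, so for LPS+recAAT against any group of the first set the library set and the treatment cannot be told apart. Other markers of the same cells were checked beside the 10. Cxcr2, the chemokine receptor of mature neutrophils, averaged 14.2 CPM (TMM-scaled counts per 1000000 gene counts) in air, whereas the surface marker Ly6g averaged 0.14 to 0.346 CPM over the 5 groups. Of the primary-granule genes, 3 were near 0: Mpo reached at most 0.244 CPM, Elane 0.143 and Ctsg 0.0722, and none of these 3 passed the filter. Prtn3, also of the primary granules, passed it and averaged 1.8 CPM in LPS and 0.757 CPM in air. Its lowest LPS mouse (1.6 CPM) lay above its highest air mouse (0.907 CPM).

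Compared per length, as CPM per kb of exon, S100a9 was the most abundant member in every group. Its level was 351 ± 182 CPM per kb in LPS+nAAT, 116 ± 30.3 in LPS+oxAAT, 167 ± 74.0 in LPS+recAAT, 208 ± 24.9 in LPS and 150 ± 13.97 in air (mean ± SD, n = 5, 5, 5, 5 and 3). S100a8, with which it forms the calcium-binding heterodimer calprotectin, came second. In every library S100a9 exceeded S100a8 per kb, by a factor of 3.06 to 4.39 in LPS+nAAT, 2.86 to 4.02 in LPS+oxAAT, 2.51 to 3.28 in LPS+recAAT, 2.71 to 4.19 in LPS and 2.85 to 3.99 in air, so these ratios overlapped between all groups. Fpr2, Csf3r and Retnlg followed at 46.3, 30.8 and 30.9 CPM per kb in LPS+nAAT and 19.1, 19.6 and 19.8 in air, and in air these 3 lay within 1 SD of each other. Clec4d stood eighth in air at 3.69 CPM per kb and seventh in the 4 LPS groups. Mmp8 and Trem1 were lowest in all groups, between 1.45 and 3.56 CPM per kb.

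**Figure D1:**
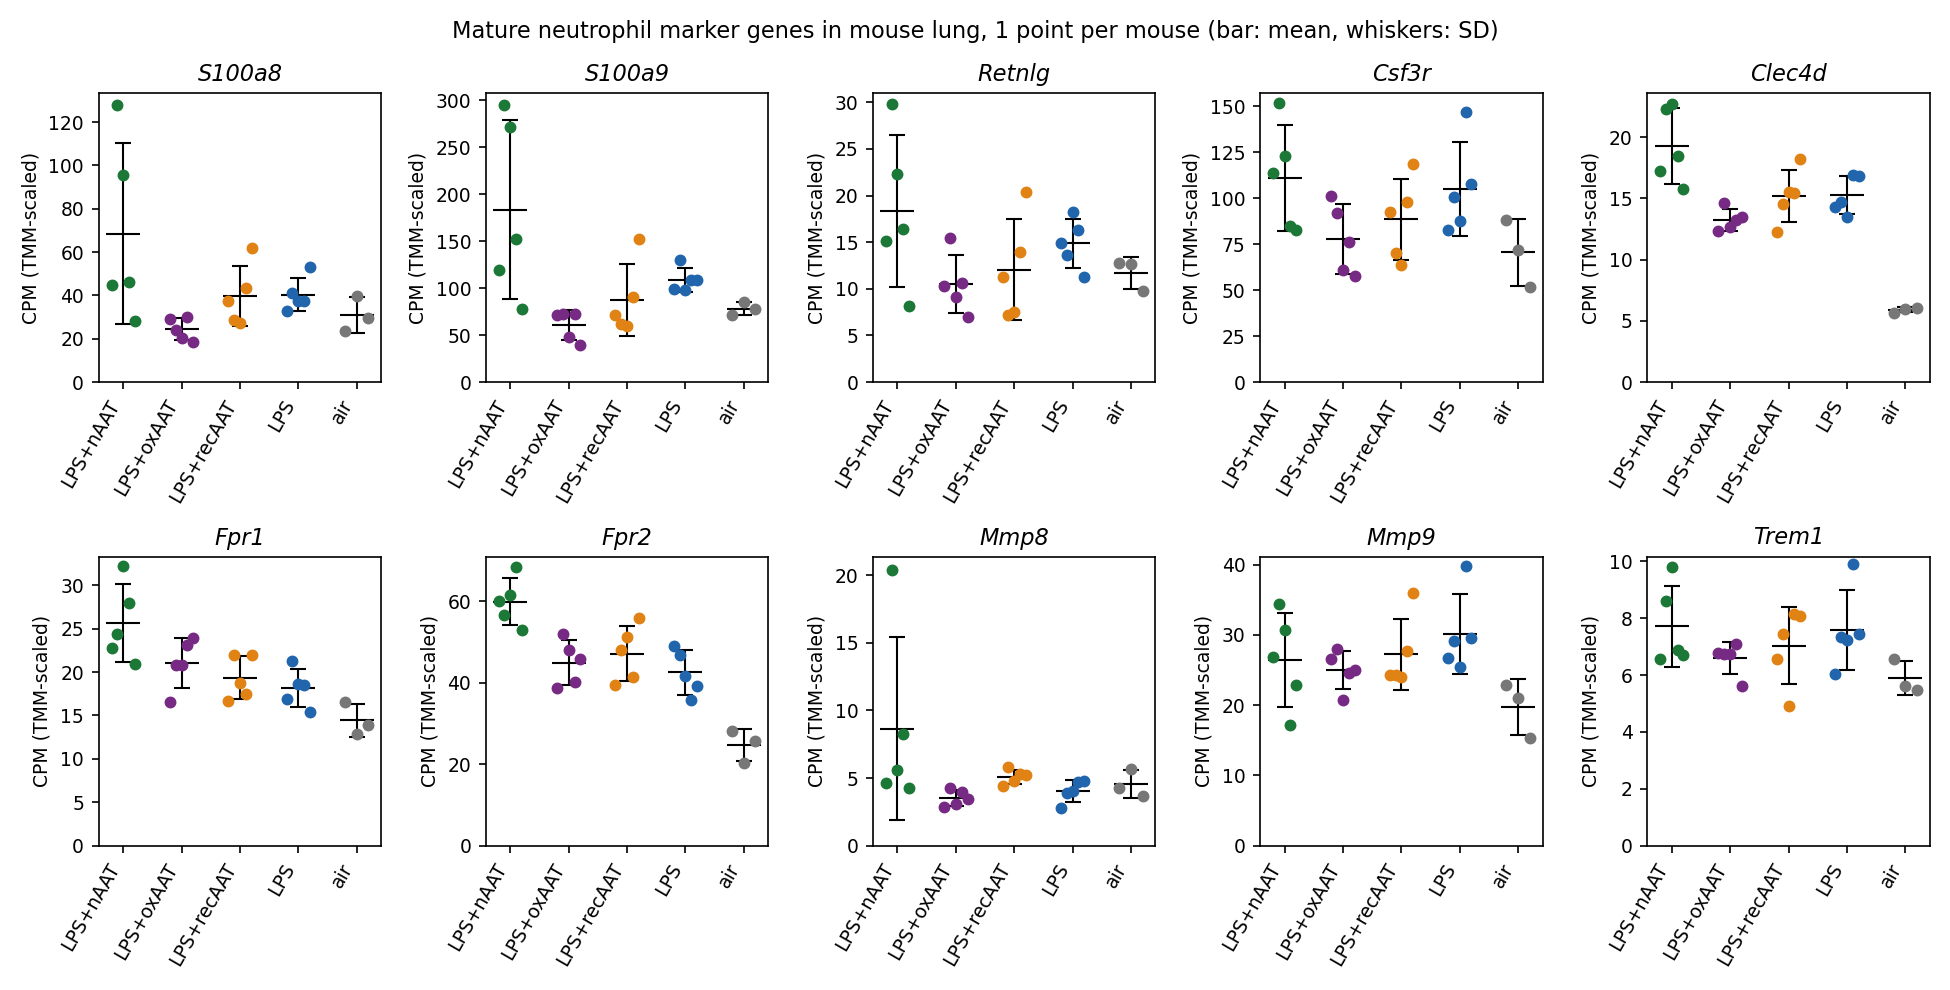
Levels of the 10 genes in CPM (TMM-scaled, linear axes from 0), 1 point per mouse, with the group mean (bar) and SD (whiskers) for LPS+nAAT, LPS+oxAAT, LPS+recAAT, LPS (n = 5 each) and air (n = 3). Clec4d and Fpr2 lie above all air mice in every mouse of the LPS groups, whereas S100a8, S100a9 and Mmp8 spread widest among the LPS+nAAT mice.

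In lungs of LPS mice set against air, 2 of the 10 genes rose, Clec4d and Fpr2, and none fell, by the quasi-likelihood test of edgeR with Benjamini-Hochberg adjustment at 0.05. Over all tested genes 4.39% were called in this comparison, 2.71% as higher. The median log2 fold change of the 10 was 0.43, against -0.01 over all genes, 9 of 10 were positive, and 6 had an unadjusted p under 0.05. In 4 of 10 (S100a9, Clec4d, Fpr2 and Mmp9) every LPS mouse exceeded every air mouse, where 5.31% of all genes did so.

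Clec4d, a C-type lectin receptor for mycobacterial glycolipids that signals through Fcer1g, changed most. It measured 14.3, 14.7, 13.5, 16.9 and 16.8 CPM in LPS lungs and 5.66, 5.97 and 6.05 CPM in air lungs. The lowest LPS mouse thus lay above the highest air mouse by more than the whole range within either group. The log2 fold change was 1.37 ± 0.14 (SE), 2.59-fold (edgeR adjusted p = 4.19e-07). Fpr2, a receptor for formyl peptides and for annexin A1, measured 49.2, 47.0, 41.7, 35.9 and 39.1 CPM in LPS lungs and 28.1, 20.4 and 25.8 CPM in air lungs. Again the groups did not overlap, and Fpr2 was 1.72-fold higher (log2 0.78 ± 0.14, edgeR adjusted p = 0.00063). Fpr1, the high-affinity formyl peptide receptor, measured 16.9, 21.3, 18.7, 18.6 and 15.4 CPM in LPS lungs and 16.5, 12.8 and 13.95 CPM in air lungs. LPS mouse 1105 lay below air mouse 2101, and the difference of 0.33 ± 0.15 was not called (edgeR adjusted p = 0.224).

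Of the calprotectin genes, S100a9 measured 98.6, 130, 98.2, 109 and 108 CPM in LPS lungs and 71.0, 85.6 and 78.2 CPM in air lungs. The groups did not overlap, yet with a log2 fold change of 0.47 ± 0.36 the gene was not called (edgeR adjusted p = 0.53); the fit estimates 1 spread per gene over all groups. S100a8 measured 32.7, 41.3, 37.4, 37.5 and 53.1 CPM in LPS lungs and 23.7, 39.9 and 29.5 CPM in air lungs, where air mouse 2102 lay among the LPS mice (log2 0.38 ± 0.37, edgeR adjusted p = 0.65). Retnlg, a resistin-like cytokine made by mouse bone marrow and neutrophils, measured 14.9, 13.6, 18.2, 16.3 and 11.3 CPM in LPS lungs and 12.7, 12.7 and 9.75 CPM in air lungs. Its groups overlapped through LPS mouse 1105 (log2 0.34 ± 0.34).

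Csf3r, the receptor for the granulocyte growth factor G-CSF, averaged 105 ± 25.4 CPM in LPS lungs and 70.6 ± 18.2 CPM in air lungs, with a log2 difference of 0.57 ± 0.24 that was not called (edgeR adjusted p = 0.203). Mmp9, the gelatinase of neutrophil tertiary granules, measured 26.7, 29.1, 25.4, 39.9 and 29.5 CPM in LPS lungs and 22.9, 20.9 and 15.3 CPM in air lungs. Every LPS mouse lay above every air mouse, with a log2 difference of 0.61 ± 0.19 that edgeR did not call (adjusted p = 0.0665) and that the DESeq2 Wald test did (adjusted p = 0.0267). Trem1, a receptor that amplifies inflammatory signals through Tyrobp, averaged 7.59 ± 1.41 CPM in LPS lungs and 5.89 ± 0.593 CPM in air lungs (log2 0.37 ± 0.18, edgeR adjusted p = 0.269). Mmp8, the neutrophil collagenase, was the only member with a negative value: 4.04 ± 0.807 CPM in LPS lungs and 4.55 ± 1.02 CPM in air lungs (log2 -0.17 ± 0.35, edgeR adjusted p = 0.852).

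**Figure D2:**
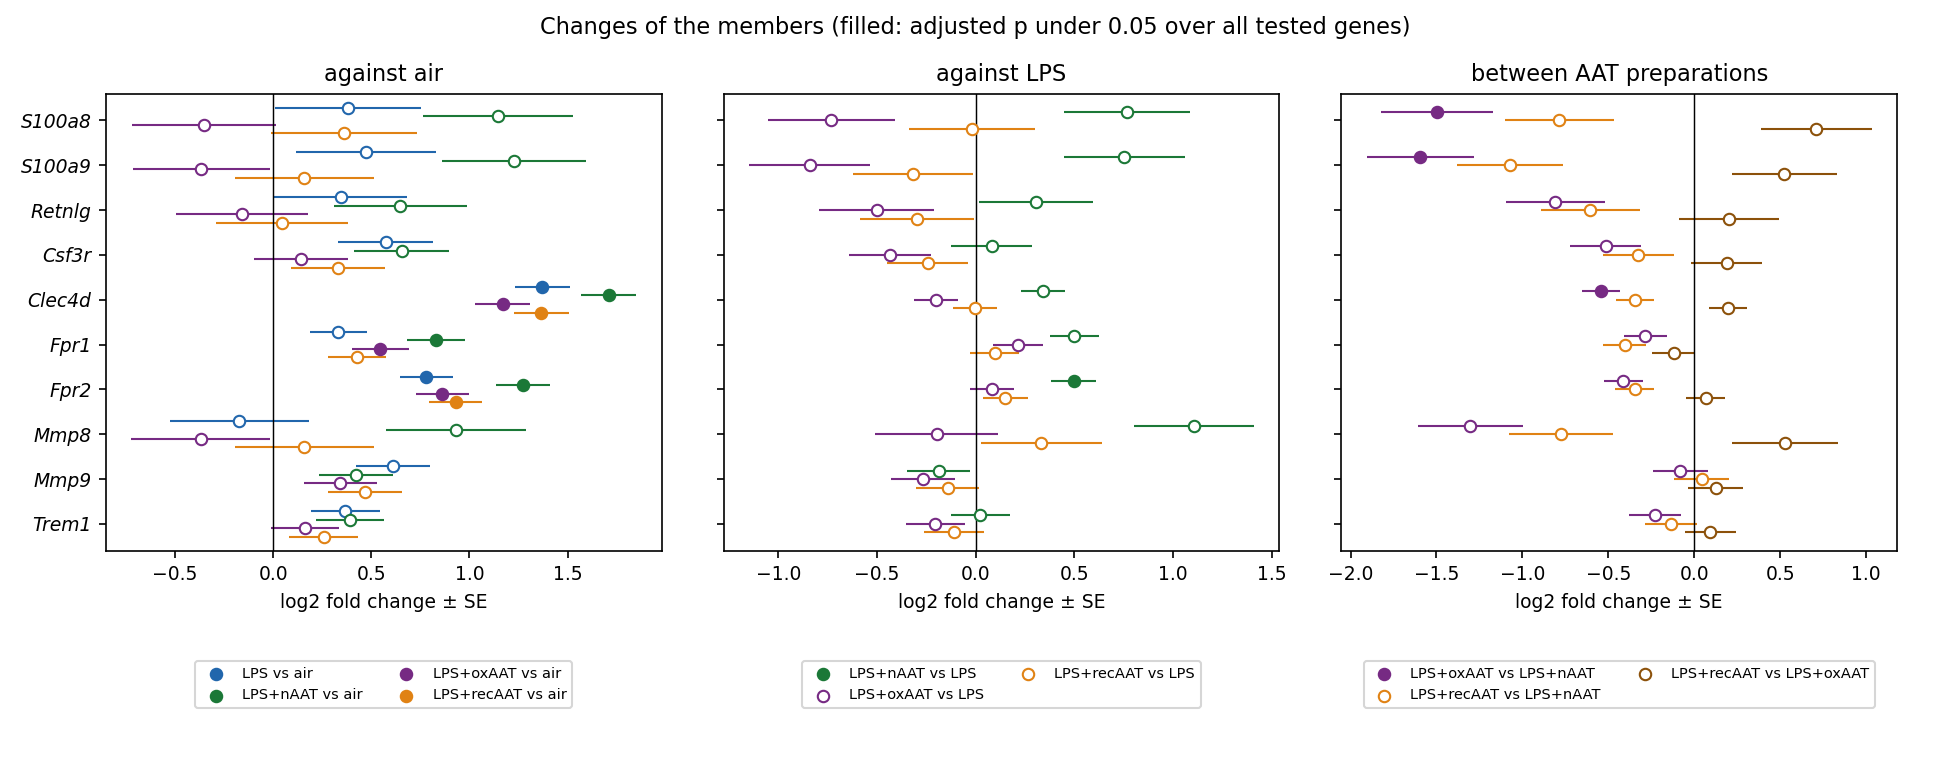
Log2 fold changes of the 10 genes with their SE (horizontal bars) from 1 edgeR fit of all 23 libraries, in the comparisons against air (left), against LPS (middle) and between AAT preparations (right); filled points have an adjusted p under 0.05. Only Clec4d and Fpr2 are filled in all 4 comparisons against air, at 1.17 to 1.71 and 0.78 to 1.28 on the log2 scale.

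Clec4d and Fpr2 also rose in each AAT group against the same 3 air mice. The 4 comparisons share these air libraries, so their results are not independent of each other, and each one's own values follow. In LPS+nAAT against air, 3 of 10 rose, Clec4d, Fpr1 and Fpr2, where 5.62% of all genes were called (3.95% higher). All 10 were positive with a median log2 fold change of 0.88 against -0.02 over all genes, and in 4 (Clec4d, Fpr1, Fpr2 and Trem1) every LPS+nAAT mouse exceeded every air mouse, where 6.95% of all genes did. In LPS+oxAAT against air the same 3 were called, where 3.76% of all genes were called (2.72% higher), with 6 of 10 positive and a median of 0.15 against -0.01; these 3 were also wholly above air, where 5.53% of all genes were. In LPS+recAAT against air 2 were called, Clec4d and Fpr2, where 6.83% of all genes were called (4.21% higher), with 10 of 10 positive and a median of 0.34 against 0.00 over all genes. Clec4d, Fpr1, Fpr2 and Mmp9 were wholly above air there, 4 of 10, where 9.04% of all genes were.

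Clec4d measured 17.3, 22.3, 22.7, 18.4 and 15.7 CPM in LPS+nAAT lungs, 12.3, 14.6, 12.6, 13.2 and 13.4 CPM in LPS+oxAAT lungs and 12.2, 14.6, 15.5, 15.4 and 18.2 CPM in LPS+recAAT lungs. Each of these 15 mice had over 2 times the highest air value of 6.05 CPM. The fold changes against air were 3.27, 2.25 and 2.58, on the log2 scale 1.71 ± 0.14, 1.17 ± 0.14 and 1.37 ± 0.14 (edgeR adjusted p = 8.43e-09, 3.83e-06 and 2.52e-07 in that order). Clec4d fell into the order LPS+nAAT, LPS, LPS+recAAT, LPS+oxAAT and air by mean, and LPS (15.3 CPM) and LPS+recAAT (15.2 CPM) did not differ beyond their SD.

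Fpr2 measured 60.1, 56.6, 61.6, 68.5 and 53.1 CPM in LPS+nAAT lungs, 38.7, 52.1, 48.1, 40.2 and 45.9 CPM in LPS+oxAAT lungs and 39.4, 48.0, 51.2, 41.4 and 55.8 CPM in LPS+recAAT lungs, all above the highest air value of 28.1 CPM. Its log2 fold changes against air were 1.28 ± 0.14 for LPS+nAAT, 0.86 ± 0.14 for LPS+oxAAT and 0.93 ± 0.14 for LPS+recAAT (edgeR adjusted p = 6.03e-07, 0.000169 and 4.58e-05 in that order). By mean the order was LPS+nAAT, LPS+recAAT, LPS+oxAAT, LPS and air, and the means of LPS+recAAT, LPS+oxAAT and LPS lay within 1 SD of each other, at 47.2, 45.0 and 42.5 CPM. For both genes the calls against air held without any single library and under every other setting run.

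Fpr1 measured 22.8, 24.3, 32.3, 28.0 and 20.9 CPM in LPS+nAAT lungs, all above the 3 air values (log2 0.83 ± 0.15, edgeR adjusted p = 0.000542). In LPS+oxAAT lungs it measured 16.5, 20.8, 20.9, 23.1 and 23.97 CPM, and the lowest, mouse 5101, stood just above the highest air mouse (log2 0.55 ± 0.15, edgeR adjusted p = 0.0333). That call was lost without LPS+oxAAT mice 5103, 5104 or 5105 or air mice 2102 or 2105 (edgeR adjusted p 0.056 to 0.185), and within the first library set, with LPS+oxAAT mice 5101 and 5102 only, the log2 fold change was 0.38 (edgeR adjusted p = 0.563). In LPS+recAAT lungs Fpr1 averaged 19.3 ± 2.5 CPM and was not called against air (log2 0.43 ± 0.15, edgeR adjusted p = 0.087). The members not called against air in any AAT group were S100a8, S100a9, Retnlg, Csf3r, Mmp8, Mmp9 and Trem1, with log2 values of 0.39 to 1.23 in LPS+nAAT, -0.37 to 0.34 in LPS+oxAAT and 0.04 to 0.47 in LPS+recAAT. S100a9 in LPS+nAAT came nearest (log2 1.23 ± 0.37, edgeR adjusted p = 0.0552); it was called without mouse 4101 (edgeR adjusted p = 0.0385) or 4105 (0.00955), and S100a8 without mouse 4105 (0.0195).

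In LPS+nAAT lungs set against LPS, 1 of 10 genes rose, Fpr2, where 0.595% of all genes were called (0.449% higher). Of the 10 differences 9 were positive, with a median of 0.42 against 0.00 over all genes, and 6 had an unadjusted p under 0.05. With the values given above, all 5 LPS+nAAT mice (53.1 to 68.5 CPM) exceeded all 5 LPS mice (35.9 to 49.2 CPM) in Fpr2, which no other member did, while 1.99% of all genes did so. The log2 difference was 0.49 ± 0.11, 1.41-fold (edgeR adjusted p = 0.0391). It was lost without LPS mice 1102, 1103, 1104 or 1105 or LPS+nAAT mice 4101, 4102, 4103 or 4104 (edgeR adjusted p 0.0529 to 0.14), while the log2 difference stayed between 0.44 and 0.55. Within the first library set, which holds both groups whole, it was 0.48 (edgeR adjusted p = 0.0737).

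Fpr1 differed by about as much, 25.7 ± 4.51 CPM in LPS+nAAT lungs and 18.2 ± 2.23 CPM in LPS lungs, with LPS+nAAT mouse 4105 (20.9 CPM) under LPS mouse 1102 (21.3 CPM) and a log2 difference of 0.50 ± 0.12 (edgeR adjusted p = 0.0578). Markers of another cell type moved with these values. Summed over 14 alveolar macrophage markers, LPS+nAAT mice had 1456 to 1813 CPM and LPS mice 1167 to 1447 CPM, so the groups did not overlap, although none of the 14 was called in this comparison; their part in the Fpr2 and Fpr1 values was not tested. The sum over 16 monocyte and recruited macrophage markers overlapped, at 2434 to 2952 CPM in LPS+nAAT and 2443 to 3043 CPM in LPS.

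The S100 genes and Mmp8 had larger but less even differences. S100a9 measured 119, 294, 272, 153 and 78.1 CPM in LPS+nAAT lungs against 98.2 to 130 CPM in LPS lungs, and S100a8 45.0, 128, 95.7, 46.3 and 28.0 CPM against 32.7 to 53.1 CPM. Mice 4102 and 4103 were far above every LPS mouse in both genes, whereas mouse 4105 was below every LPS mouse in both. Neither was called, at log2 0.75 ± 0.31 for S100a9 (edgeR adjusted p = 0.252) and 0.76 ± 0.32 for S100a8 (edgeR adjusted p = 0.265). Mmp8 measured 4.63, 20.4, 5.62, 8.22 and 4.28 CPM in LPS+nAAT lungs and 2.77, 3.9, 4.06, 4.71 and 4.76 CPM in LPS lungs. Mouse 4102 carried much of the log2 difference of 1.11 ± 0.30 (edgeR adjusted p = 0.0892), which was 0.49 without it (edgeR adjusted p = 0.218). Retnlg (0.31 ± 0.29), Clec4d (0.34 ± 0.11), Csf3r (0.08 ± 0.21), Trem1 (0.02 ± 0.15) and Mmp9 (-0.19 ± 0.16) were not called either. Under the DESeq2 Wald test Fpr1, Fpr2 and Mmp8 were called, 3 in all. The share of all genes that DESeq2 called is not given, so these 3 cannot be set against the edgeR share.

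Oxidized AAT set against LPS gave 0 of 10 calls by edgeR, where 4.71% of all genes were called; 3 members (S100a8, S100a9 and Csf3r) had an unadjusted p under 0.05, and DESeq2 also called 0. Of the 10 differences 8 were negative, with a median of -0.24 against -0.01 over all genes. S100a9 measured 71.8, 72.0, 47.8, 72.3 and 39.5 CPM in LPS+oxAAT lungs against 98.2 to 130 CPM in LPS lungs, and S100a8 29.1, 23.8, 20.4, 30.0 and 18.4 CPM against 32.7 to 53.1 CPM. In both genes every LPS+oxAAT mouse lay below every LPS mouse, which held for 1.03% of all genes. All LPS mice belong to the first library set, as do LPS+oxAAT mice 5101 and 5102. LPS+oxAAT mice 5103, 5104 and 5105 belong to the second, and 5103 and 5105 had the lowest values of both genes. Library set and treatment thus coincide in part here. The log2 differences were -0.84 ± 0.31 for S100a9 (edgeR adjusted p = 0.124) and -0.73 ± 0.32 for S100a8 (edgeR adjusted p = 0.206), neither past the threshold. Csf3r averaged 77.8 ± 18.9 CPM in LPS+oxAAT lungs and 105 ± 25.4 CPM in LPS lungs (log2 -0.43 ± 0.21, edgeR adjusted p = 0.239).

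Recombinant AAT set against LPS likewise gave 0 of 10 calls by edgeR and 0 by DESeq2, with no unadjusted p under 0.05 among the members, where edgeR called 8.49% of all genes. The differences ran from -0.32 for S100a9 to 0.33 for Mmp8, with a median of -0.07 against -0.01 over all genes. S100a9 measured 70.8, 61.9, 59.5, 90.9 and 152.5 CPM in LPS+recAAT lungs, with mouse 6105 above all LPS mice and the other 4 below all of them. S100a8 measured 37.6, 28.8, 27.2, 43.4 and 61.8 CPM in those lungs, spread across the LPS range.

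Between preparations, oxidized AAT set against native AAT had the most member calls: S100a8, S100a9 and Clec4d were lower, 3 of 10, where 0.344% of all genes were called (0.128% lower). All 10 differences were negative, with a median of -0.53 against 0.00 over all genes, and 8 had an unadjusted p under 0.05. S100a9 averaged 60.7 ± 15.8 CPM in LPS+oxAAT lungs and 183 ± 95.2 CPM in LPS+nAAT lungs (log2 -1.59 ± 0.31, edgeR adjusted p = 0.0373), and S100a8 24.3 ± 5.14 CPM and 68.5 ± 41.6 CPM in the same order (log2 -1.50 ± 0.32, edgeR adjusted p = 0.0495). For S100a9 all LPS+oxAAT mice lay below all LPS+nAAT mice, whereas for S100a8 LPS+oxAAT mice 5101 and 5104 lay above LPS+nAAT mouse 4105. Clec4d averaged 13.2 ± 0.876 CPM in LPS+oxAAT lungs and 19.3 ± 3.09 CPM in LPS+nAAT lungs, without overlap (log2 -0.54 ± 0.11, edgeR adjusted p = 0.0385). Fpr2 and Mmp8 did not overlap either but were not called, at log2 -0.41 ± 0.11 (edgeR adjusted p = 0.108) and -1.30 ± 0.31 (0.0637), so 4 of 10 members lay wholly lower, where 1.32% of all genes did. Retnlg, at log2 -0.81 ± 0.29, and Csf3r, at -0.52 ± 0.21, were not called.

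These 3 calls were close to the threshold. Without LPS+nAAT mice 4102, 4103 or 4104 or LPS+oxAAT mice 5103, 5104 or 5105 no member was called (edgeR adjusted p 0.0657 to 0.124 for S100a9). S100a8 also lost its call without mice 4101, 5101 or 5102 and held it only without 4105 (edgeR adjusted p 0.0508 to 0.173 where lost), and Clec4d lost it without mouse 5101 as well (edgeR adjusted p 0.0526 to 0.124). LPS+oxAAT mice come from both library sets. Within the first set, with LPS+oxAAT mice 5101 and 5102 only, the log2 differences were -1.34 for S100a9, -1.37 for S100a8 and -0.51 for Clec4d, with edgeR adjusted p of 0.484, 0.627 and 0.484, and when the set entered the model they were -1.35, -1.38 and -0.52 (edgeR adjusted p = 0.442, 0.466 and 0.347). The summed alveolar macrophage markers were 1091 to 1476 CPM in LPS+oxAAT and 1456 to 1813 CPM in LPS+nAAT; their part in the Clec4d value was not tested.

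Recombinant AAT set against native AAT gave 0 of 10 calls by edgeR, where 1.93% of all genes were called, and 1 by DESeq2 (S100a9). Of the 10 differences 9 were negative and 7 had an unadjusted p under 0.05, the largest being S100a9 (log2 -1.07 ± 0.31, edgeR adjusted p = 0.0799). S100a9 was called without LPS+nAAT mouse 4105 (edgeR adjusted p = 0.0351) or LPS+recAAT mouse 6105 (0.0259). Here the library sets and the groups coincide and cannot be told apart; with the set in the model, using the LPS+oxAAT mice of both sets, the S100a9 difference was -0.63 (edgeR adjusted p = 0.662). Recombinant AAT set against oxidized AAT gave 0 of 10 calls by edgeR and 0 by DESeq2, where edgeR called 0.0175% of all genes. Only 1 member, S100a8, had an unadjusted p under 0.05. Mmp8 was the only member whose groups did not overlap, at 4.39, 5.79, 4.81, 5.26 and 5.19 CPM in LPS+recAAT lungs and 2.84, 4.22, 3.11, 3.94 and 3.45 CPM in LPS+oxAAT lungs (log2 0.53 ± 0.31, edgeR adjusted p = 1), where 0.391% of all genes lay wholly higher.

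From mouse to mouse within a group, 17 of the 45 pairs of members were correlated past the threshold, with S100a8 and S100a9 the tightest and Fpr2 tied only to Fpr1. For this, the deviation of log2 CPM from the group mean was compared over the 23 libraries for all 45 pairs of members, with permutation p-values (100000 permutations within groups, two-sided) adjusted over the 45. The share of other gene pairs that pass this test is not given, so the 17 pairs have no such share beside them. S100a8 and S100a9 had the highest r and rho (Pearson's r = 0.926, Spearman's rho = 0.892, adjusted permutation p = 0.000225 for both, from the smallest raw p that the permutations can give, 1e-05). Without the 2 libraries farthest from the median of S100a8, r was 0.881. It was 0.926 within the first library set and 0.979 within the second. In each pair the farthest libraries were chosen by a single gene: S100a8 here, and below Csf3r, S100a9 and Fpr1. High values were also found for Csf3r with Mmp9 (r = 0.857, rho = 0.864, adjusted permutation p = 0.000225 for both; r = 0.848 without the 2 farthest libraries, 0.922 and 0.742 within the sets). For S100a9 with Retnlg the values were similar (r = 0.863, rho = 0.774, adjusted permutation p = 0.0009 and 0.00522; r = 0.77 without the 2 farthest libraries, 0.802 and 0.935 within the sets).

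Of the 17 pairs with an adjusted permutation p under 0.05 for r, 13 lay among S100a8, S100a9, Retnlg, Csf3r, Mmp9 and Trem1, a set of 6 chosen after its values were seen, whose 15 pairs had r from 0.57 to 0.926. Without LPS+nAAT mice 4102 and 4103 and LPS+recAAT mouse 6105, these 15 ran from 0.0809 to 0.811. Of the 15, 9 were then under 0.5, where none was with all libraries. The omitted mice had the highest mean deviations of the members (0.546, 0.294 and 0.432) and were picked after their values were seen. LPS+nAAT mouse 4105, at -0.537, was kept, so only high mice were left out. Clec4d passed with S100a8 (r = 0.678, rho = 0.527, adjusted permutation p = 0.0322 and 0.0774), S100a9 (r = 0.715, rho = 0.577, 0.0273 and 0.0423) and Mmp9 (r = 0.602, rho = 0.532, 0.0399 and 0.056), passing for rho only with S100a9. Fpr2 correlated with Fpr1 (r = 0.558, rho = 0.552, adjusted permutation p = 0.0399 and 0.0423; r = 0.544 without the 2 farthest libraries, 0.603 and 0.617 within the sets). With the other 8 members Fpr2 had r between -0.237 and 0.228, and none of these passed the adjustment. Correlated with the mean of the other 9 members, S100a9 stood at r = 0.91, S100a8 at 0.838, Retnlg at 0.834, Clec4d at 0.744, Csf3r at 0.727, Mmp9 at 0.675, Trem1 at 0.672, Mmp8 at 0.551, Fpr1 at 0.263 and Fpr2 at -0.0173, given as a description. Without mice 4102, 4103 and 6105, r of Clec4d was 0.224 with S100a8, 0.281 with S100a9 and 0.237 with Mmp9, and r of S100a8 with Mmp9 was 0.0817, against 0.572 with them. S100a8 with S100a9 kept 0.811, Csf3r with Mmp9 0.794 and S100a9 with Retnlg 0.725. These pairs share libraries and depth.

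**Figure D3:**
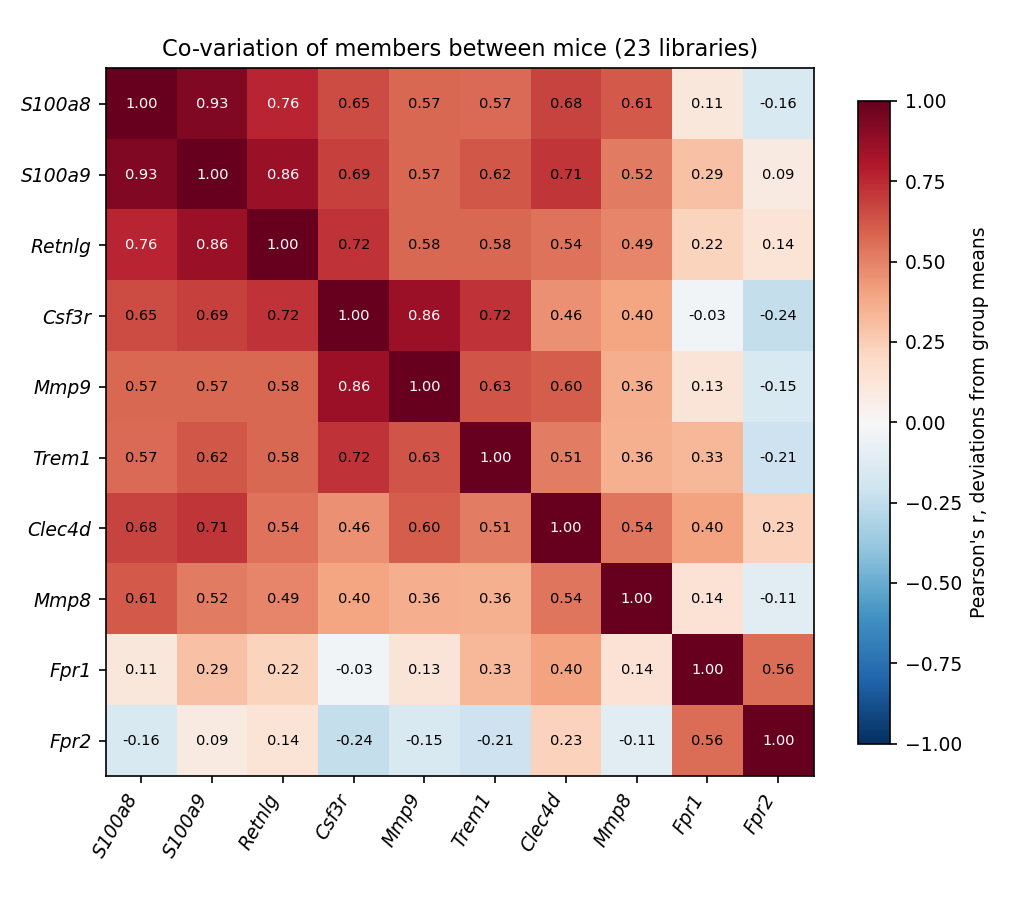
Pearson's r between the 10 genes over 23 libraries, computed on deviations of log2 CPM from group means; red is positive, blue negative, and each cell prints its r. The 6 genes from S100a8 to Trem1, grouped after their values were seen, are at 0.57 or above with each other, and the last row, Fpr2, is between -0.24 and 0.56.

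Single mice stood out across members. LPS+nAAT mouse 4102 was the highest of its group in 6 of 10 members and mouse 4103 in 3, while mouse 4105 was the lowest in 8, and the mean log2 deviation of the members was 0.546, 0.294 and -0.537 in these 3 mice. LPS+recAAT mouse 6105 was the highest of its group in 8 of 10, with a mean deviation of 0.432. In the LPS, LPS+oxAAT and air groups the mean deviation stayed between -0.184 and 0.2. Genes outside the 10 whose deviations were most like the members' mean, among 12968 ranked, were Cxcr2 (r = 0.773), Nlrp12 (0.753), Nfam1 (0.748), Fgr (0.744), Trpm2 (0.738), Trim30b (0.731), Asprv1 (0.731) and Il1r2 (0.723), over 23 libraries and as a description.

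**Figure D4:**
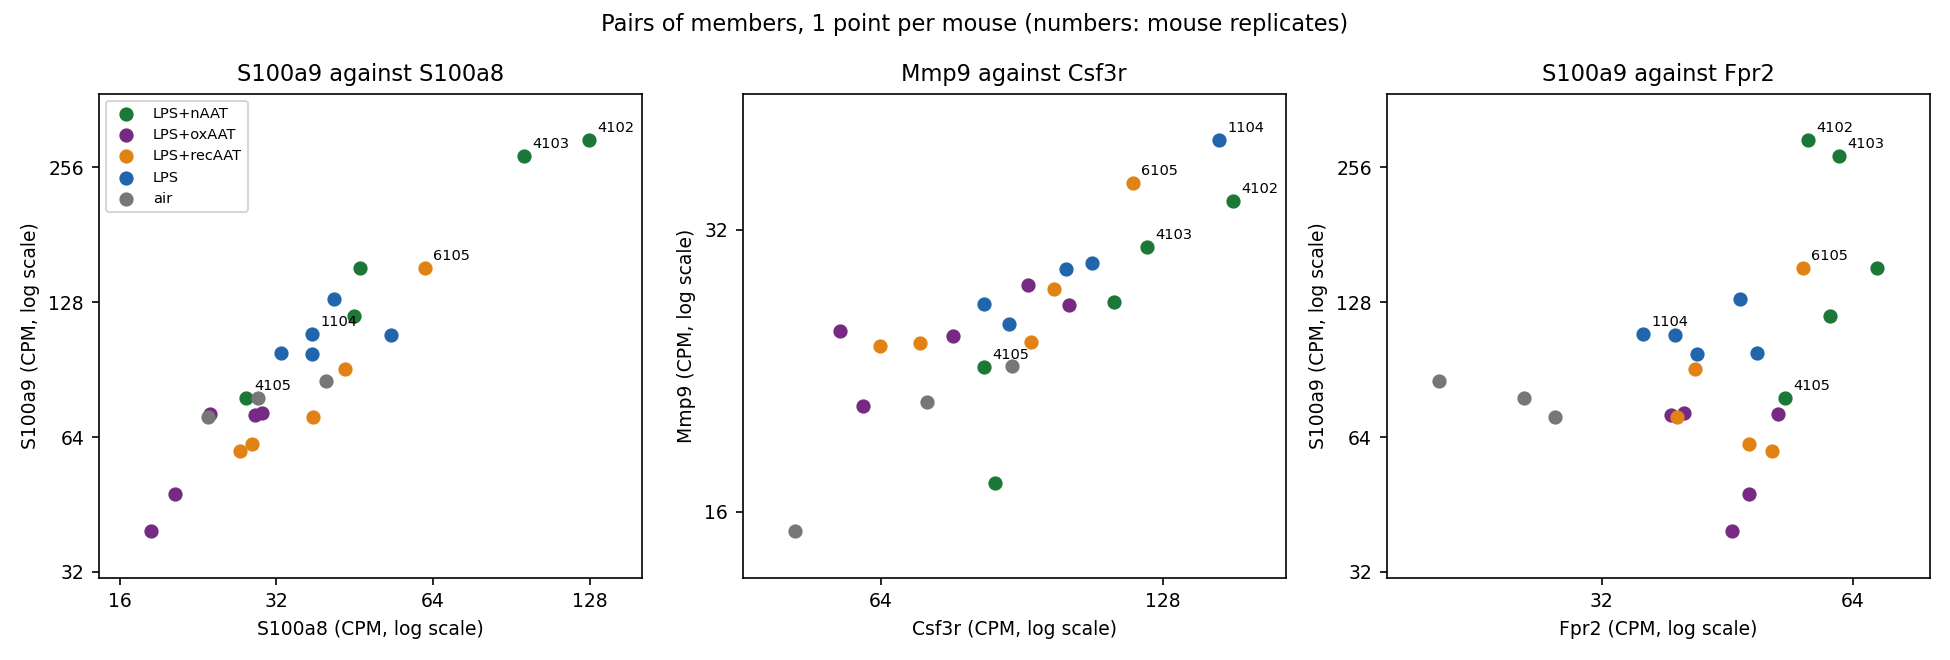
CPM of pairs of members in single mice on log axes, coloured by group, with the mice named in the text numbered: S100a9 against S100a8, Mmp9 against Csf3r and S100a9 against Fpr2. Mice 4102 and 4103 lie at the top of the first and last panels with 294 and 272 CPM of S100a9, while their Fpr2 (56.6 and 61.6 CPM) lies within the range of the LPS+nAAT group.

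Of 20 ligands, receptors and partners of the members, 18 were tested. In LPS against air 5 rose and none fell, where 2.71% of all tested genes were called higher. Timp1, the inhibitor of Mmp9, rose by 1.48 ± 0.17 on the log2 scale (edgeR adjusted p = 4.46e-06) and Clec4e, the lectin that pairs with Clec4d, by 1.10 ± 0.15 (3.77e-05). Fcer1g, the signalling chain of both lectins, rose by 0.82 ± 0.15 (edgeR adjusted p = 0.0013) and the kinase Syk downstream of it by 0.57 ± 0.11 (0.00134). In LPS+nAAT against air 6 rose, now with Anxa1, the ligand of Fpr2, at 0.42 ± 0.11 (edgeR adjusted p = 0.0224). Against air, 4 rose and 1 fell (Cebpd, log2 -1.17 ± 0.25, edgeR adjusted p = 0.00479) in LPS+oxAAT, and 5 rose in LPS+recAAT. Of all tested genes 3.95%, 2.72% and 4.21% were called higher in these comparisons, in that order. Clec4e was also higher in LPS+recAAT than in LPS (log2 0.45 ± 0.12, edgeR adjusted p = 0.0228), where edgeR called 8.49% of all genes. The library set and the treatment cannot be told apart in that comparison. Csf3, which encodes the ligand of Csf3r, never exceeded 0.209 CPM and was not tested.

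Of 25 other neutrophil markers tested, 13 rose in LPS+nAAT against air, 8 in LPS+oxAAT, 8 in LPS+recAAT (with Hdc lower) and 9 in LPS. Over all tested genes 3.95%, 2.72%, 4.21% and 2.71% were called higher in these comparisons, in that order. In LPS against air the 9 markers included Wfdc21 (log2 2.94 ± 0.23), Acod1 (3.21 ± 0.41), Ptafr (0.85 ± 0.11) and Pglyrp1 (1.51 ± 0.22). Of these, Acod1, the itaconate-making enzyme, is also strong in activated macrophages. Cxcr2 was called in LPS+nAAT against air (log2 1.19 ± 0.25, edgeR adjusted p = 0.00359). Of 10 tested precursor and granule genes, 4 rose in LPS against air, among them Lcn2 (3.09 ± 0.17), an iron-binding protein that lung epithelium also makes. Of 14 tested chemokine and adhesion genes, 6 rose in LPS against air, among them the neutrophil attractants Cxcl3 (4.90 ± 0.55), Cxcl1 (2.03 ± 0.27) and Cxcl5 (3.51 ± 0.51). In LPS+nAAT against LPS, Cxcl2 was lower (log2 -1.28 ± 0.25, edgeR adjusted p = 0.0186).

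Markers of the cells that share Clec4d and the formyl peptide receptors moved as well. Over all tested genes 4.39% were called in LPS against air, 2.71% as higher. In that comparison 7 of 16 monocyte and recruited macrophage markers rose, among them Cd14 (log2 2.23 ± 0.16), Ms4a7 (1.09 ± 0.15) and C1qc (0.89 ± 0.13). Of 14 alveolar macrophage markers 4 rose, with Marco at 2.60 ± 0.32 and Itgax at 1.04 ± 0.13, and Ear2 fell by 0.61. The median log2 fold change of the 14 was 0.29, but they did not move as 1 group. Without being called, Siglecf, Fabp1 and Ear1 averaged 16.7, 7.42 and 25.8 CPM in LPS and 22.9, 11.1 and 28.2 CPM in air. The summed alveolar macrophage level was 1456 to 1813 CPM in LPS+nAAT, 1091 to 1476 in LPS+oxAAT, 872 to 1441 in LPS+recAAT, 1167 to 1447 in LPS and 905 to 1023 in air. Such a sum weighs abundant genes most: Car4 averaged 314 CPM in LPS and 190 CPM in air, and Chil3 287 and 193 CPM. The summed level of the 10 members was 320 to 770 CPM in LPS+nAAT, 240 to 330 in LPS+oxAAT, 277 to 499 in LPS+recAAT, 344 to 435 in LPS and 240 to 281 in air, with LPS wholly above air. The part of macrophage markers in the Clec4d and Fpr2 rises was not tested. In LPS against air the lists of other lung cells held few calls: Ccl22 and Ccl17 rose among 9 dendritic cell markers, Pf4 rose among 9 platelet and red cell markers, Sftpd rose and Etv5 fell among 9 alveolar type 2 markers, and Cav1 fell among 8 alveolar type 1 markers. None was called among 12 T and NK cell, 8 B cell, 8 endothelial or 8 airway epithelial markers by edgeR.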

How the data were processed

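RNA-seq counts of 23 lung libraries, 1 per mouse, in 5 groups were used. Per the labels' protocols, poly(A) RNA went through a stranded Illumina kit. The authors deposited unnormalized whole-number counts for each Ensembl gene; per the submitters' processing notes FastQC 0.11.8, Trimmomatic 0.38 and 0.36, STAR 2.4.0.1, HTSeq 0.11.1 and GRCm38 were used. Which strand setting and which annotation release the authors counted with is not stated in the labels. The 5 summary lines, 12.7% to 19.8% of all tallied reads, were left out; GENCODE M21 named 40340 of 41388 genes.

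Counts were TMM-scaled (factors 0.978 to 1.028), filtered with filterByExpr by group (17148 genes) and tested in 1 model of all libraries with the two-sided quasi-likelihood F test of edgeR 4.0.16 (robust, R 4.3.3), Benjamini-Hochberg adjusted over all tested genes and called under 0.05, in 10 comparisons. P-values set each difference against the spread between mice within groups, which was estimated once per gene over all 5 groups. SE is the log2 fold change divided by the square root of F. CPM are TMM-scaled counts per 1000000, per kb over merged exons; log2 CPM used a prior count of 2. Counting error adds most for Mmp8 and Trem1. Alternatives were DESeq2 1.42.0 (its size factors and its Wald test), no filter, a replicate block, the library set (mt-Nd6 share above or below 2%) as a term or a selection, a fit of just the 2 groups in question, and omission of 1 library at a time.

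The members, the 14 further gene lists and the tests were chosen with earlier results of these data known, so no list is independent evidence. Named from a list were up to 4 called genes of smallest adjusted p per comparison and genes a result turns on; most-alike genes were the 8 of highest r among named genes averaging 1 log2 CPM or more.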

Additional observations from a re-analysis of the deposited data

Results flagged for a closer look

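In 3 of 40 groups of 5 values, 1 mouse stood apart from the other 4 by more than Dixon's 95% criterion allows, which chance does in about 1 in 20 groups. Mmp8 was at 20.4 CPM in LPS+nAAT mouse 4102, where the others had 4.28 to 8.22 CPM. Mmp9 was at 39.9 CPM in LPS mouse 1104, where the others had 25.4 to 29.5 CPM, and Trem1 at 5.61 CPM in LPS+oxAAT mouse 5105, where the others had 6.73 to 7.08 CPM.

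In the direct comparison of LPS+oxAAT with LPS+nAAT, 3 members were called lower by edgeR, where 0.128% of all genes were. On the log2 scale these were S100a8 by -1.50 (edgeR adjusted p = 0.0495), S100a9 by -1.59 (0.0373) and Clec4d by -0.54 (0.0385). None of these calls held with the library set in the model or within the first library set.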

How the results depend on the processing

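The calls of Clec4d and Fpr2 against air held in all 4 comparisons under every alternative run. The number of members called in LPS+nAAT against LPS, 1 as reported, was 0 with no filter, 0 in the first library set, 0 in a fit of only the 2 groups, 2 with the set as a term and 3 with the DESeq2 Wald test. In LPS+oxAAT against LPS+nAAT, 3 as reported, it was 0 with no filter, 0 with the set in the model, 0 in the first set, 0 in a fit of only the 2 groups and 5 with DESeq2. DESeq2 also gave 5 for LPS+nAAT against air (3 as reported) and 1 for LPS+recAAT against LPS+nAAT (0 as reported). The share of all genes called is not given for the alternatives, so their member counts have no such share beside them. Leaving out 1 library gave 2 to 2 calls for LPS against air, 3 to 5 for LPS+nAAT, 2 to 3 for LPS+oxAAT and 2 to 2 for LPS+recAAT against air. It gave 0 to 2 for LPS+nAAT, 0 to 0 for LPS+oxAAT and 0 to 0 for LPS+recAAT against LPS, 0 to 4 for LPS+oxAAT and 0 to 1 for LPS+recAAT against LPS+nAAT, and 0 to 0 for LPS+recAAT against LPS+oxAAT. The cause of these changes was not tested.

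The replicate block on the last digit of the mouse number gave 2 calls (Fpr1 and Fpr2) in LPS+nAAT against LPS and 1 (Clec4d) in LPS+oxAAT against LPS+nAAT, and Fpr1 in LPS+oxAAT against air lost its call (edgeR adjusted p = 0.0819). Deviations of mice that share a digit had r from -0.383 to 0.354 over 42 pairs (median 0.0332, against -0.0275 for other digits). The labels name no pairing, and low correlations cannot show that the mice were unpaired. LPS+recAAT has no library in the first set, so the first-set fit could not be made for its comparisons; within the second set, chosen after seeing the data, LPS+recAAT against LPS+oxAAT gave 0 calls. No member value with an unadjusted p under 0.05 changed sign under an alternative. Air has 3 libraries, and Mmp8 and Trem1 have the fewest counts, which limits what could be detected there.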
